A study of Mus musculus with 6 samples.

Results

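Kinesins are motor proteins that burn ATP to walk along microtubules or to take them apart, and the Cenp proteins build the centromere, the part of the chromosome that the spindle holds. Expression of both families was measured in mouse samples labelled as satellite cells, with and without Magic-F1. On an Agilent array of 43379 non-control spots, the genes were chosen by name, as spots whose gene name was Kif followed by a digit or Cenp followed by a single letter. This gave 104 spots, each a separate probe, for 51 of the 27827 names on the array. They comprised 35 kinesin genes with 76 probes and 16 Cenp genes with 28 probes. The rule reads gene names alone.

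Satellite cells are the resident stem cells of muscle fibres, and the samples were labelled as being in proliferation. The first group was of genotype Magic-F1+/+, that is homozygous for Magic-F1, a designed protein built from parts of hepatocyte growth factor that acts on its receptor MET. The other was a control group whose sample titles carry the word MLC3F, which the labels do not explain. All mice were female, the tissue was skeletal muscle, and age, strain and the promoter of the transgene are not given in the sources used here. Each group held 3 samples, called biological triplicates in the series' design, with 1 single-colour array per sample. The replicate numbers used here come from the sample titles, while every source name ends in rep1. Whether a sample was 1 animal or a pool is not stated, so p-values measure the spread between samples that could in part be technical.

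The markers went against the labelled cell type in the Magic-F1 samples. All 9 tested myoblast and satellite cell markers were lower there than in control, with a summed signal of 34.4 to 35.9 times the array's 75th percentile against 456 to 495 times, and Pax7, the defining satellite cell factor, was well above background on no Magic-F1 array. Pax7 was therefore tested only through its control signal, which fixed its direction, and it adds nothing to that count. Of 10 macrophage markers 9 were higher, among them Cd68 by 55.8-fold and Csf1r by 67.7-fold. The direction of Mrc1, well above background on no control array, was fixed in the same way. The control samples also carried markers of another cell type. Their 8 tested neutrophil and precursor markers summed to 584 to 631 times the 75th percentile. The samples are therefore called by their labels, as Magic-F1 and control samples, and the part of cell makeup in the results below was not tested.

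In a dividing cell, mitotic kinesins push spindle poles apart, move and align chromosomes, trim microtubule ends and complete cytokinesis. Their transcripts, and those of the kinetochore, rise in the second part of the cell cycle and fall when cells leave it. Transport kinesins carry organelles, vesicles and ciliary components in dividing and resting cells alike, and several are known best from neurons. The inner centromere proteins bind the nucleosomes of the centromeric histone Cenpa and recruit the outer kinetochore.

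Promoters of many late cell cycle genes hold the cell cycle homology region, TTTGAA, often downstream of a CCAAT box. Both motifs were searched on both strands in RefSeq promoter windows (GRCm38.p6) of 300 bases, from 250 bases before to 50 after the start site. Windows were matched for 46 of the 51 genes. TTTGAA was found in 8 of 10 mitotic kinesin genes (80%) and in 1 of 10 transport kinesin genes (10%), beside 20.2% of the 27025 genes of the table. A CCAAT box was present in 6 of the 10 mitotic and 3 of the 10 transport kinesin genes, beside 41.1% of all genes. Both motifs together occurred in 5 mitotic kinesin genes, in 0 transport kinesin genes and in 7.97% of all genes. Among inner centromere genes, 3 of 11 held TTTGAA (27.3%) and 8 of 11 held CCAAT (72.7%). The variant TTTAAA, which reads the same on both strands and was counted apart, was found in 2 mitotic kinesin genes and in 14.9% of all genes. A match describes letters in a window and does not show a binding site.

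**Figure D1:**
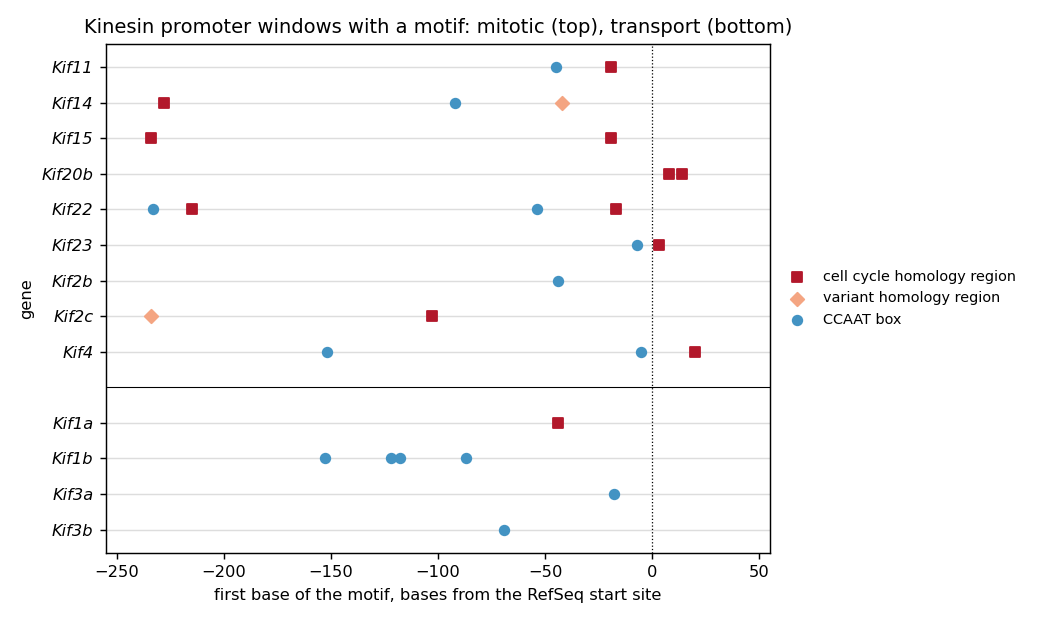
Position of motifs in the RefSeq promoter windows of mitotic (top) and transport (bottom) kinesin genes with at least 1 motif; the horizontal axis is the distance in bases of the motif's first base from the start site, marked by the dotted line. Squares are TTTGAA, diamonds TTTAAA and circles CCAAT on either strand; squares mark 8 mitotic genes and 1 transport gene.

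The windows below show the motif arrangement in mitotic kinesin and Cenp genes that were lower in Magic-F1 samples and held both motifs. A pair of transport kinesin genes that were higher follows for contrast. These windows do not stand for their classes. Lower genes such as Kif18a, Cenpp and Cenpq held no TTTGAA, and Kif1a, a transport gene that was higher, held it at −44. Each window shown runs 5′ to 3′ on the gene's strand from 120 bases before to 30 bases after the start site. Capitals mark TTTGAA (or TTCAAA, its reverse complement) and CCAAT (or ATTGG). In GRCm38.p6 they lie at chr19:37376262-37376411 for Kif11, chr7:127042391-127042540 for Kif22, chr9:61946770-61946919 for Kif23, chrX:100625945-100626094 for Kif4, chr8:116921620-116921769 for Cenpn, chr1:189688057-189688206 for Cenpf, chr11:53567249-53567398 for Kif3a and chr2:153291296-153291445 for Kif3b.
Kif11: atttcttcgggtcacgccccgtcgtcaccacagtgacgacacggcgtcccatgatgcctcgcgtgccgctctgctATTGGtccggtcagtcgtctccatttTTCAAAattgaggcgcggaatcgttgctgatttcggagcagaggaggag
Kif22: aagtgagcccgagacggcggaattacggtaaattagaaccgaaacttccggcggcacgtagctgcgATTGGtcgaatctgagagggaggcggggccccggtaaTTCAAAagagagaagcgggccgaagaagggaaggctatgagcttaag
Kif23: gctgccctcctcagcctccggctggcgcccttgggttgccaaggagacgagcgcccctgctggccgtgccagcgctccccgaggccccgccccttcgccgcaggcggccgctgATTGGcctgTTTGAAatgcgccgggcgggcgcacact
Kif4: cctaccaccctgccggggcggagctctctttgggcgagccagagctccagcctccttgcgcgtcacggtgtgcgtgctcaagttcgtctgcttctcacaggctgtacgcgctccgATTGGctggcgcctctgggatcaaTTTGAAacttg
Cenpn: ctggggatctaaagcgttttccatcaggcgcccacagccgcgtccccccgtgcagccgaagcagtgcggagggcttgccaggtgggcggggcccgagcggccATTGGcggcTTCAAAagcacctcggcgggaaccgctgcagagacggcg
Cenpf: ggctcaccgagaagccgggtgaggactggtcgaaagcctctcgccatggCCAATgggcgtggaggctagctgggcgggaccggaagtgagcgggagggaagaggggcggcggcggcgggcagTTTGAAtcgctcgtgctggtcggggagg
Kif3a: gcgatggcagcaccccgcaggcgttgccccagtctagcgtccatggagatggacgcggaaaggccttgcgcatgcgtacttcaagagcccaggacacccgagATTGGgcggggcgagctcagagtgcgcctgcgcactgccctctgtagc
Kif3b: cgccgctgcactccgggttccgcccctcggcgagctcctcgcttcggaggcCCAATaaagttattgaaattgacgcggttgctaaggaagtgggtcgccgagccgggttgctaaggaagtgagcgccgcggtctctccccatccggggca

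In Kif11 and Kif22, TTCAAA began at positions −19 and −17 relative to the start site, with ATTGG further upstream, at −45 and −54. In Kif23 and Cenpf, TTTGAA began at base 3 after the start, and in Kif4 at base 20. The windows of Kif3a and Kif3b held a CCAAT box each and no TTTGAA.

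Signals were put on a log2 scale relative to each array's 75th percentile, which was 348 ± 7.78 for Magic-F1 and 282 ± 8.93 for control (SD, n = 3 each). Between 49.2% and 52.0% of non-control spots per array were well above background. Probes that exceeded background clearly on all 3 arrays of either group were tested with limma, and a probe was called at an adjusted p below 0.05. Of all 14752 genes tested, 88.3% were called, 47.8% lower and 40.5% higher in Magic-F1, so that a call by itself does not set a gene apart here. The median change over all tested genes was −0.15 on the log2 scale. A shift of all genes depends on the scaling: with the spiked-in transcripts as reference the median was 0.31. Fewer cells of a type and less RNA per cell cannot be told apart in these bulk samples.

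Of the 104 probes, 65 were tested, and 35 of these were lower, 27 higher and 3 not called. Of the 65, 6 were well above background on no Magic-F1 array and 6 on no control array. Over all 21190 tested probes 87.7% were called, 46.4% lower and 41.3% higher. Scaled on the spiked-in transcripts, 29 were lower and 32 higher. Of the 39 probes not tested, 31 were well above background on no array. With each gene represented by its tested probe of highest mean signal, 42 genes were measured, of which 27 were lower, 14 higher and 1 not called. The 9 genes without a tested probe were Kif2b, Kif15, Kif20b, Kif17, Kif12, Kif26a, Kif27, Cenpa and Cenpi.

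In the classes used here, which were drawn up with earlier results of these data known, the kinesins split by role. The depolymerase Kif2a, placed among the other kinesins, changed by −0.48. All 8 tested mitotic kinesin genes were lower in Magic-F1 samples. The 6 that were above background in both groups had log2 changes from −3.70 to −2.59, and the other two, Kif18a and Kif14, have only a bound because neither exceeded background clearly in Magic-F1. The fitted median of the 8 was −3.44, and −3.11 with both genes at their bound. Of 12 tested transport kinesin genes, 11 were higher and 1 was not called, with a fitted median of 2.03 (1.92 with Kif13b at its bound) and a range of 0.07 to 5.02. All 8 mitotic genes fell at least 2-fold, beside 28.6% of all tested genes, and 11 of the 12 transport genes rose at least 2-fold, beside 24.2%. Kif18a, Kif14 and Kif13b passed the filter only through the group where they were high. Their direction was therefore fixed by the filter and adds nothing to these counts. Every Magic-F1 array lay below every control array for the 8 mitotic genes (48.6% of all tested genes) and above for 11 transport genes (41.2%); in either direction 89.8% of all tested genes had groups that did not overlap. By probe, 11 of 11 tested probes of mitotic kinesins were lower, while 22 of 27 tested probes of transport kinesins were higher, 2 were lower and 3 were not called. Among the called probes, those of Kif18a, Kif14 and Kif13b and the dimmer probes of Kif23, Kif16b and Kif5a had their direction fixed by the filter. They add nothing to the probe counts either. Within slide 1, which held replicates 1 and 3 of both groups, the fitted medians were −3.37 and 2.05. On slide 2, with 1 array per group, the median differences were −3.44 and 1.98.

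**Figure D2:**
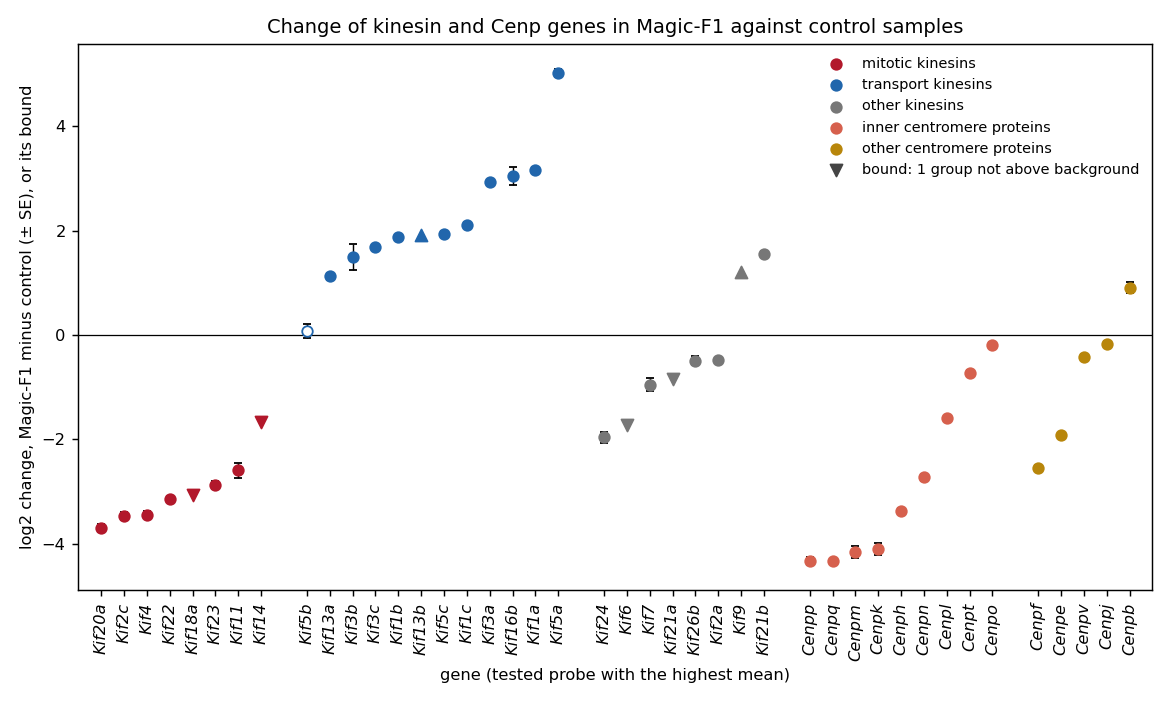
Log2 change, Magic-F1 minus control, of each measured kinesin and Cenp gene by class; points are fitted changes from 3 against 3 arrays, bars are standard errors, the open point is not called, and triangles are bounds for genes not well above background in 1 group. The 6 mitotic kinesins with a measured change lie between −3.70 and −2.59, 2 more are bounds below 0, and 11 of the 12 transport kinesins lie above 1, Kif13b among them as a bound.

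Among the mitotic kinesins, Kif20a carries the chromosomal passenger complex to the central spindle. Its log2 signals were 1.70, 1.88 and 1.70 in Magic-F1 replicates 1, 2 and 3, and 5.51, 5.49 and 5.38 in control replicates 1, 2 and 3. Every Magic-F1 array lay below every control array, and the change was −3.70 ± 0.070 (SE) (limma, adjusted p = 8.67e-08). A second probe, which overlaps the first, gave −3.63.

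Kif2c takes microtubule ends apart and corrects faulty attachments of chromosomes to the spindle. It read −4.32, −4.31 and −4.51 in Magic-F1 and −0.82, −0.98 and −0.93 in control. The groups did not overlap and the change was −3.47 ± 0.076 (11.1-fold lower, adjusted p = 1.395e-07 by limma). Kif4 is a chromosome-bound motor that shapes mitotic chromosomes and works with Prc1 at the central spindle. Its signals were −0.80, −0.94 and −0.75 against 2.61, 2.69 and 2.53, again without overlap. It fell by 3.44 ± 0.071 on the log2 scale (10.8-fold, limma adjusted p = 1.103e-07).

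Kif18a limits the growth of microtubules at the kinetochore, and Kif14 acts in cytokinesis. Both were well above background on all 3 control arrays and on no Magic-F1 array, so the size of their change is a bound: the control mean against, per Magic-F1 array, the higher of the probe's own signal and the lowest signal well above background. Kif18a read −2.28, −2.21 and −2.22 in control and −6.26, −6.75 and −7.22 in Magic-F1, and was at least 8.39-fold lower (means −2.24 and −6.74, limma adjusted p = 4.472e-06). Kif14 read −3.91, −3.42 and −3.60 in control and −6.92, −6.97 and −7.39 in Magic-F1, and was at least 3.17-fold lower (means −3.64 and −7.09, limma adjusted p = 4.228e-06).

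The other measured mitotic kinesins fell as well. Kif22, a chromokinesin that pushes chromosome arms towards the equator, changed by −3.14 ± 0.053. Kif23, which forms centralspindlin with Racgap1, changed by −2.87 ± 0.081, and its second probe, dim in Magic-F1, was at least 7.13-fold lower. Kif11, the motor that separates the spindle poles, changed by −2.59 ± 0.14. Kif18b, listed on the array under a clone name and therefore outside the name rule, changed by −2.63 ± 0.13. Kif15, which helps Kif11 keep the spindle bipolar, was well above background with 1 of 3 probes on 2 control arrays and on no Magic-F1 array, and was not tested.

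**Figure D3:**
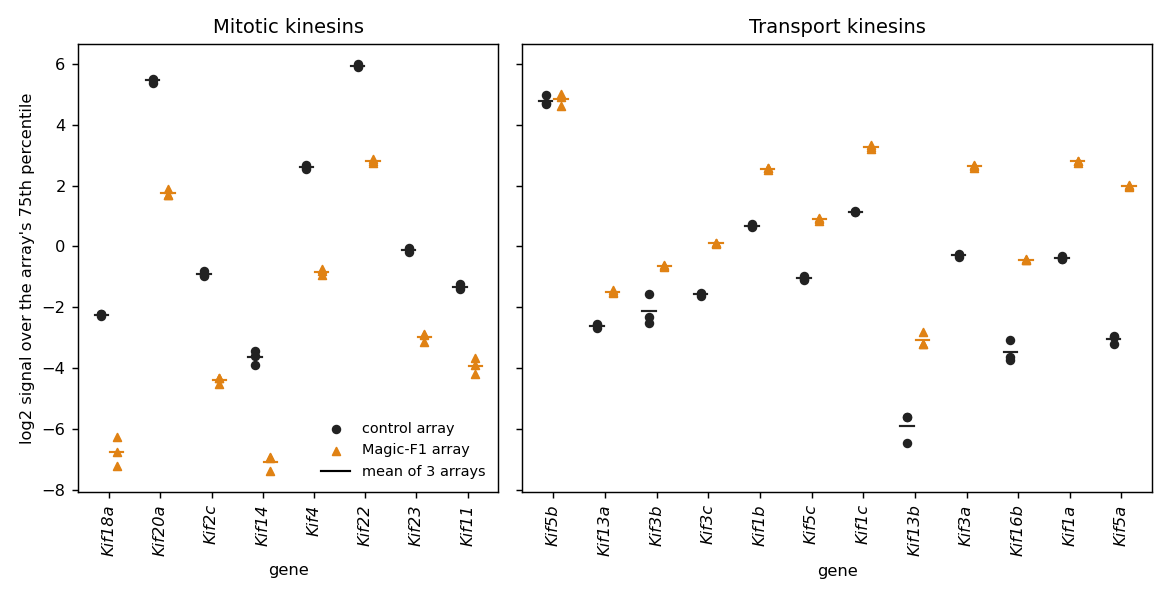
Log2 signal over the array's 75th percentile on every array for the measured mitotic (left) and transport (right) kinesins; circles are control arrays, triangles Magic-F1 arrays and lines means of 3. Triangles lie below circles for all 8 mitotic genes and above them for 11 of 12 transport genes, with Kif5b overlapping. Kif18a and Kif14 in Magic-F1 and Kif13b in control were not well above background on any array, and levels of different genes come from different probes and are not comparable.

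The size of the mitotic falls depended on the background treatment. The alternative was normexp with an offset of 50 added to every signal, in place of the scanner's background subtraction. With normexp, the median of the mitotic kinesins was −1.77 and that of the transport kinesins 1.60. An added offset shrinks the changes of dim probes most, and its part was not separated from that of the correction. The bounds given for dim genes hold for the scanner's subtraction alone. Bright genes moved little (Kif20a −3.59, Kif22 −3.01, Kif4 −3.05), and dim ones moved most (Kif18a −1.18, Kif14 −0.69, Kif2c −1.71, Kif23 −1.83, Kif11 −1.37), so that Kif14 no longer passed 2-fold. Among the transport kinesins Kif13a (0.48), Kif3b (0.96) and Kif13b (0.32) did not pass 2-fold with normexp.

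The inner centromere genes were lower too. All 9 tested genes were lower, 7 of them at least 2-fold, with a median of −3.38 and a range of −4.33 to −0.18. Within slide 1 the median was −3.39, with 8 of the 9 called lower, and on slide 2 the median difference was −3.34. Cenpa itself was not well above background on any array with either of its probes, and Cenpi was not with its only probe, so neither was measured.

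Cenpp and Cenpq belong to a subcomplex that helps to hold the inner kinetochore together. Cenpp read −1.96, −1.88 and −2.11 in Magic-F1 and 2.32, 2.31 and 2.43 in control, a change of −4.33 ± 0.074 (20.2-fold lower, limma adjusted p = 6.304e-08). Cenpq read −0.12, −0.14 and −0.13 in Magic-F1 and 4.18, 4.17 and 4.22 in control, a change of −4.32 ± 0.042 (20-fold lower, limma adjusted p = 2.175e-08). For both, the distance between groups was far larger than the spread within them. Cenpo, of the same subcomplex, differed only by −0.18 ± 0.047 (limma adjusted p = 0.010), and with median centring this was −0.05 and not called.

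Cenph, Cenpk and Cenpm belong to the subcomplex that bridges the centromeric nucleosome and the outer kinetochore. Cenpm read −4.88, −4.51 and −4.59 in Magic-F1 and −0.55, −0.57 and −0.38 in control (−4.16 ± 0.11, limma adjusted p = 3.039e-07). Cenpk read −3.32, −3.18 and −3.56 in Magic-F1 and 0.69, 0.67 and 0.88 in control (−4.11 ± 0.11, limma adjusted p = 3.375e-07). A second Cenpk probe, dim in Magic-F1, was at least 14.4-fold lower. Cenph read −0.99, −1.05 and −1.14 in Magic-F1 and 2.29, 2.30 and 2.37 in control (−3.38 ± 0.058, limma adjusted p = 6.309e-08). None of the 3 genes had overlapping groups.

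Cenpn and Cenpl, which pair to read the centromeric nucleosome, changed by −2.72 ± 0.063 and −1.59 ± 0.041. Cenpt, which links centromeric DNA to the Ndc80 complex, changed by −0.73 ± 0.058. Some inner centromere genes carry other names on the array and so stood outside the rule. Of these, Cenpu (as Mlf1ip) changed by −2.35 ± 0.078 with its brighter probe and by −0.84 ± 0.14 with its other probe, and Cenps and Cenpw, dim in Magic-F1, were at least 5.39-fold and 2.31-fold lower. Cenpx (as Stra13), which also serves in DNA repair, was higher by 0.58 ± 0.080. Cenpc1, listed with a digit after the letter, changed by −0.42 ± 0.16 (limma adjusted p = 0.049), with groups that overlapped. With normexp, Cenpm changed by −2.08, Cenpk by −2.81, Cenpp by −3.65, Cenph by −2.96 and Cenpn by −2.16, and the median of the 9 genes was −2.16.

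**Figure D4:**
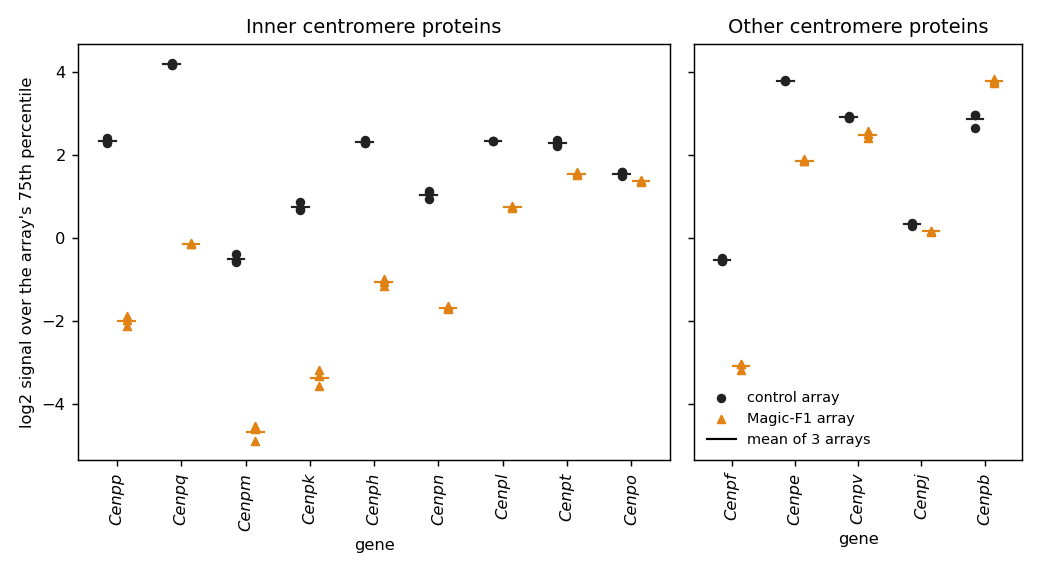
Log2 signal over the array's 75th percentile on every array for the measured inner centromere genes (left) and other Cenp genes (right), with circles for control arrays, triangles for Magic-F1 arrays and lines for means of 3. Only Cenpb has its Magic-F1 arrays above its control arrays.

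The 5 remaining Cenp genes are named for the centromere but differ in function, and they did not move together. Cenpf and Cenpe were lower by the most, Cenpv and Cenpj by little, and Cenpb was higher. Cenpf, a large coiled-coil protein of the outer kinetochore, read −3.02, −3.17 and −3.02 in Magic-F1 and −0.54, −0.48 and −0.56 in control (−2.54 ± 0.061, limma adjusted p = 1.893e-07), and −1.57 with normexp. Cenpe is itself a kinesin motor that brings chromosomes to the equator. It read 1.86, 1.86 and 1.90 in Magic-F1 and 3.80, 3.78 and 3.81 in control (−1.92 ± 0.041, limma adjusted p = 1.309e-07).

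Cenpb binds a short motif in centromeric satellite DNA. It was the only gene called higher among the 14 measured Cenp genes of the name rule: 3.73, 3.83 and 3.79 in Magic-F1 against 2.97, 2.98 and 2.66 in control (0.91 ± 0.097, limma adjusted p = 0.000154). Cenpv read 2.41, 2.50 and 2.58 in Magic-F1 and 2.90, 2.91 and 2.95 in control (−0.42 ± 0.057, limma adjusted p = 0.0005144). Cenpj, a centriole assembly factor, read 0.16, 0.16 and 0.18 in Magic-F1 and 0.34, 0.38 and 0.29 in control (−0.17 ± 0.045, limma adjusted p = 0.013). Under spike-in scaling Cenpj was 0.29, Cenpo 0.27 and Cenpv 0.03, so the direction of these small changes turned with the scaling.

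The transport kinesins belong to 3 families, and members of each were called higher. Conventional kinesin is built on the heavy chains Kif5a, Kif5b and Kif5c. Kif5a, best known from neurons, read 1.98, 1.94 and 2.01 in Magic-F1 and −3.20, −2.96 and −2.98 in control. The change of 5.02 ± 0.077 was the largest among the representative kinesin probes (32.5-fold higher, limma adjusted p = 4.583e-08; 3.70 with normexp). A second probe, for another RefSeq accession and dim on all control arrays, was at least 1.54-fold higher (means −4.36 and −6.72, limma adjusted p = 2.566e-05), and with normexp its change was 0.06 and not called. Kif5c, its other neuronal relative, changed by 1.94 ± 0.057.

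Kif5b, the ubiquitous heavy chain, was the exception. Its brighter probe read 5.03, 4.63 and 4.93 in Magic-F1 and 4.72, 4.68 and 4.97 in control. The groups overlapped and the change of 0.07 ± 0.13 was not called (limma adjusted p = 0.61); without Magic-F1 replicate 1 it was −0.01, and with spike-in scaling it was 0.53 and called. Its other probe was lower, by −1.07 ± 0.076 (limma adjusted p = 2.052e-05).

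Heterotrimeric kinesin, the motor of transport into cilia, pairs Kif3a with Kif3b or Kif3c. Kif3a read 2.67, 2.59 and 2.64 in Magic-F1 and −0.35, −0.26 and −0.27 in control, a change of 2.92 ± 0.050 (7.58-fold higher, limma adjusted p = 6.188e-08). The second Kif3a probe, at chr11:53416218-53416277 (mm9), changed by 5.51 ± 0.076, a larger rise for the same accession. Kif3b changed by 1.496 ± 0.25 and Kif3c by 1.68 ± 0.048. A second Kif3c probe, dim on all control arrays, had overlapping groups and was not called (limma adjusted p = 0.089). In Kif3b, control replicate 2 read −1.55 against −2.32 and −2.52 in the other control arrays, below the Magic-F1 values of −0.65, −0.60 and −0.66.

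The third family, of monomeric or dimeric vesicle motors, includes Kif1a, Kif1b, Kif1c, Kif13a, Kif13b and Kif16b. Kif1a, which carries synaptic vesicle precursors in axons, read 2.75, 2.82 and 2.82 in Magic-F1 and −0.30, −0.40 and −0.40 in control (3.16 ± 0.052, limma adjusted p = 5.617e-08). Its dimmer probe gave 1.40 ± 0.50 (adjusted p = 0.036 in the same limma fit), with control replicate 1 at −2.24 and the other control arrays at −4.23 and −3.67. Kif16b, a motor of early endosomes, read −0.43, −0.41 and −0.44 in Magic-F1 and −3.07, −3.73 and −3.64 in control (3.05 ± 0.18, limma adjusted p = 7.41e-06; 1.58 with normexp).

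Kif13b was well above background on all Magic-F1 arrays and on no control array. It read −2.80, −3.19 and −3.21 in Magic-F1 and −5.62, −6.45 and −5.60 in control, and was at least 3.77-fold higher (means −3.07 and −5.89, limma adjusted p = 7.252e-05; log2 change 0.32 with normexp). Kif1c rose by 2.12 ± 0.051 and Kif13a by 1.12 ± 0.061. Kif17, a motor of neuronal dendrites, was not well above background on any array with any of its 3 probes.

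Probes of the same gene can read different transcripts. Among the 19 genes with several tested probes, 2 had probes called in opposite directions (Kif1b and Kif24), beside 14.0% of the 4967 such genes on the array. The opposite calls of Kif24 did not hold with normexp. In Kif1b the tested probes divided by accession. The probe with the highest signal, for NM_207682 at chr4:148551200-148551259 (mm9), read 2.51, 2.58 and 2.57 in Magic-F1 and 0.74, 0.67 and 0.65 in control (1.87 ± 0.048, limma adjusted p = 2.386e-07). Another probe of NM_207682 (chr4:148552199-148552258) read −0.15, −0.28 and −0.36 in Magic-F1 and −4.67, −5.85 and −4.73 in control, where it was well above background on 1 array, and changed by 4.82 ± 0.32 (limma adjusted p = 1.494e-05). The probe of NM_008441 (chr4:148611741-148611800) went the other way, with −3.28, −3.03 and −3.28 in Magic-F1 and −1.68, −1.83 and −1.46 in control (−1.54 ± 0.12, limma adjusted p = 3.174e-05). The higher calls thus came from probes of NM_207682 and the lower call from a probe of NM_008441, with no overlap between groups for any of the 3 probes. Another probe of NM_008441 was well above background on no array and was not tested, so the lower call has no second probe beside it.

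**Figure D5:**
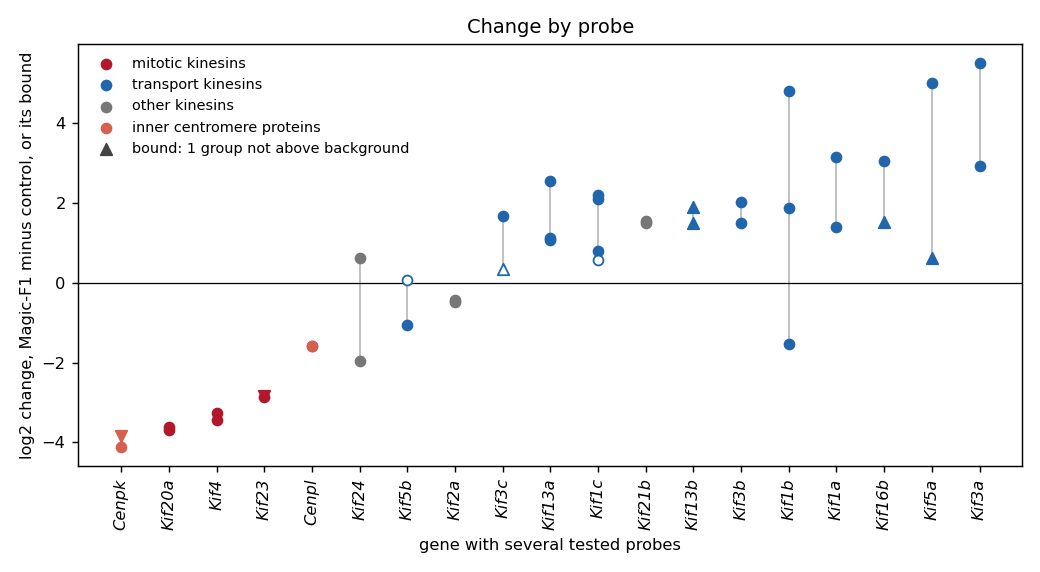
Log2 change, Magic-F1 minus control, of every tested probe of the 19 genes with several tested probes; each symbol is a probe, open symbols are not called, triangles are bounds for probes not well above background in 1 group, grey lines join probes of a gene and colours give the class. The 3 probes of Kif1b span 6.36 and lie on both sides of 0.

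Between probes above background in both groups, the spread of the log2 change was 0.07 for Kif20a and 0.16 for Kif4. In both of these genes the probes overlap in part and share some of their bases. The probes of the transport kinesins named next do not overlap, so the spreads of the classes cannot be compared. Among transport kinesins it was 0.53 for Kif3b, 1.14 for Kif5b, 1.49 for Kif13a, 1.77 for Kif1a and 2.59 for Kif3a. It was 1.63 for Kif1c, whose 4 probes included 1 that was not called (0.58, limma adjusted p = 0.056).

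The other kinesins are a mixed remainder that includes motors of cilia and motors that act on microtubule growth. They showed no common direction, with 6 genes lower and 2 higher of 8 tested. Their fitted median was −0.72 (−0.67 with Kif6, Kif21a and Kif9 at their bound). Kif6, a motor related to ciliary Kif9, was well above background on no Magic-F1 array. It read −3.51, −3.84 and −3.43 in control and −7.35, −6.10 and −6.81 in Magic-F1 and was at least 3.28-fold lower (means −3.59 and −6.75, limma adjusted p = 0.0001152; log2 change −0.69 with normexp). Kif9 was dim on all control arrays instead. It read −3.96, −3.77 and −3.58 in Magic-F1 and −5.19, −5.80 and −5.47 in control, at least 2.32-fold higher (means −3.77 and −5.49, limma adjusted p = 0.0001235), but with normexp its change was 0.06 and not called.

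Kif24, a centriolar motor that restrains cilium formation, had probes that went opposite ways. The NM_024241 probe, at chr4:41338920-41338979 (mm9), read −4.08, −4.15 and −4.42 in Magic-F1 and −2.38, −2.16 and −2.24 in control (−1.96 ± 0.11, limma adjusted p = 5.914e-06; −0.86 with normexp). The AK020445 probe, at chr4:41401628-41401687, read −3.14, −2.59 and −3.05 in Magic-F1 and −3.63, −3.29 and −3.75 in control (0.62 ± 0.19, limma adjusted p = 0.019). With normexp its change was 0.11 and not called, so the opposite calls of Kif24 depended on the background treatment. Kif21b, which regulates microtubule growth in neurons and immune cells, read 3.22, 3.16 and 3.21 in Magic-F1 and 1.67, 1.64 and 1.62 in control (1.56 ± 0.043, limma adjusted p = 3.351e-07). Its relative Kif21a read −5.22, −5.47 and −5.64 in Magic-F1, dim on every array, and −4.33, −4.56 and −4.31 in control, at least 1.79-fold lower (means −5.44 and −4.40, limma adjusted p = 0.0003018; log2 change −0.40 with normexp). Kif7, which transmits Hedgehog signals at the cilium tip, changed by −0.95 ± 0.12, Kif26b by −0.50 ± 0.086 and the depolymerase Kif2a by −0.48 ± 0.043. Under spike-in scaling Kif26b and Kif2a were −0.04 and −0.02 and not called.

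Genes that act with these proteins were grouped by function. Of 26 tested centromere and kinetochore partners, 24 were lower, 1 was higher and 1 was not called, with a fitted median of −2.53 (−2.37 with 3 genes at their bound). Nsl1, a subunit of the Mis12 complex, was at least 14.1-fold lower and dim on all Magic-F1 arrays (means −7.52 and −1.49). Ska1, which couples kinetochores to moving microtubule ends, changed by −5.05 ± 0.058, Sgo1, the guardian of sister chromatid cohesion, by −4.75 ± 0.077, and Oip5, which loads centromeric histone, by −4.27 ± 0.078. Cenpx was the gene called higher. With normexp the median of the list was −1.64.

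All 14 tested partners of the mitotic kinesins were lower, with a median of −3.38. Birc5 of the chromosomal passenger complex changed by −4.36 ± 0.079, the spindle protein Hmmr by −3.89 ± 0.094, and the mitotic kinases Aurka and Plk1 by −3.84 ± 0.047 and −3.63 ± 0.049. With normexp the median was −2.55.

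Of 18 tested partners of the transport kinesins, 11 were higher, 5 lower and 2 not called, with a median of 1.29. Plekhm1 and Plekhm2, adaptors that act at lysosomes, changed by 3.92 ± 0.045 and 2.50 ± 0.060, the motor Kifc2 by 2.46 ± 0.071 and the kinesin light chain Klc4 by 2.44 ± 0.044. The genes called lower changed by less: Kifap3, which joins Kif3a and Kif3b, by −0.58 ± 0.048, Rhot1 by −0.49 ± 0.063, Mapk8ip1 by −0.48 ± 0.12, Rhot2 by −0.17 ± 0.044 and Kifc3 by −0.14 ± 0.049. Klc1 (0.14) and Klc2 (0.01) were not called. With normexp the median of the list was 0.17.

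Dynein and dynactin, which move cargo the opposite way, had 11 genes lower, 9 higher and 2 not called of 22 tested, with a median of −0.21. The majority depended on the scaling, with 5 lower and 11 higher on the spiked-in reference. Dync1i1, an intermediate chain, was dim on all Magic-F1 arrays and at least 17.9-fold lower (means −7.28 and −1.14). The light chains Dynll2 and Dynll1 changed by −1.80 ± 0.080 and −1.57 ± 0.061. Of the 9 genes called higher, Dctn6 changed by 2.54 ± 0.064 and the heavy chain Dync1h1 by 1.43 ± 0.041. The others were Dctn1 (1.20), Dync1li2 (1.05), Pafah1b1 (1.03), Dctn5 (0.73), Bicd2 (0.48), Dctn4 (0.27) and Dync1i2 (0.22).

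Other cell markers differed between the groups as well. Of 6 proliferation markers, 5 were lower: Ccnb1 changed by −5.21 ± 0.042 and Mki67 by −1.45 ± 0.060, Top2a was dim on all Magic-F1 arrays, and Pcna (−0.02) was not called. Their summed signal was 122 to 130 times the 75th percentile in Magic-F1 and 158 to 164 times in control, most of it from Pcna, and without Pcna it was 3.75 to 3.97 times against 38.5 to 39.1 times. The macrophage markers summed to 1056 to 1116 against 355 to 383. Lyz2, the macrophage marker that was lower (−0.30 ± 0.059), made up most of the control sum, and the other 9 markers summed to 776 to 810 against 15.7 to 16.0. All 7 tested adipocyte markers were higher (460 to 489 against 58.5 to 65.4). All 8 tested neutrophil and precursor markers were lower (0.275 to 0.289 against 584 to 631), 4 of them dim in Magic-F1, as were 6 of 7 endothelial markers (0.221 to 0.254 against 8.32 to 8.73), of which 4 were dim in Magic-F1. These dim markers, Top2a, Mrc1 and Retn passed the filter only through the group where they were high. Their direction was therefore fixed and adds nothing to the marker counts. Fibroblast markers had 2 higher and 4 lower, with sums of 688 to 701 against 977 to 1001. The marker differences lie between the same groups as the mitotic kinesin, Cenp and transport kinesin results, and their part in those results was not tested.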

How the data were processed

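Total RNA was extracted with a Qiagen RNeasy kit, labelled with Cy3 and hybridised to 6 Agilent arrays of design 014868, with spiked-in viral transcripts, per the labels' protocols. Spot intensities were made by the authors with Agilent Feature Extraction (version 10.5.1.1 per the file headers), which subtracted background and did not normalize between arrays. The authors also deposited a table of log2 values, used as an alternative. It equals the log2 intensity within 1e-06 on 4 arrays and differs on both arrays numbered 1 (SD of the difference 0.456 and 0.472), for which no source used here gives the processing. Its column medians over all spots were 3.34, 3.29 and 3.40 for Magic-F1 and 3.16, 3.16 and 3.23 for control replicates 1, 2 and 3.

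Control spots were left out, outlier spots (59 to 89 per array) were set to missing, each array's 75th percentile was subtracted from its log2 intensities, and spots of a probe were averaged; 0 spots were saturated. Probes well above background on all 3 arrays of a group (21190) were fitted with limma 3.58.1 in R 4.3.3 (lmFit and eBayes, group only, 2-sided). P-values were adjusted with Benjamini-Hochberg over all 21190 probes. The fit was also run on simulated arrays in which few probes changed, unlike these data, so that run does not vouch for the calls. Probe positions are the files' own, on mm9, and RefSeq windows are on GRCm38.p6; the builds were not mixed. RefSeq symbols were matched by accession for 82 of the 104 probes and 0 differed from the file's name. No statistical test compared gene lists or motifs. Values are given for every kinesin and Cenp gene class as follows: the 5 called genes with the largest change, each gene called against its class and each gene with opposite probes in full, and the rest in brief; from each partner list at most 4 called genes plus those called against its majority. The members, classes, lists and motifs were chosen with earlier results of these data known. Alternatives covered background, scaling, filters, variance model, slide, replicate number, the deposited table, probe choice and leaving out each array. Precision is limited by the 3 arrays per group.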

Additional observations from a re-analysis of the deposited data

How the results depend on the processing

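Of the 42 kinesin and Cenp genes measured, 35 kept their direction and their call under every refit in which they were tested; 6 of the 42 (Kif18a, Kif14, Kif6, Kif21a, Kif9 and Kif13b) were not tested when all 6 arrays had to be well above background. At a threshold of 0.01, 39 genes were called, and 33 were called with at least a 2-fold change. With spike-in scaling, 61 probes were called (29 lower and 32 higher, so that the majority turned), Cenpo was 0.27, Cenpj 0.29 and Cenpv 0.032, Kif26b and Kif2a were no longer called, and Kif5b was called. Cenpo and Cenpj were also not called with median centring, without the filter on dim probes or within slide 1, Cenpj not with normexp, and Kif9 not with normexp. Of the other kinesins, 5 were called among probes well above background on all 6 arrays and 5 when a 2-fold change was required, since fewer genes could pass; 2 of the other centromere genes passed 2-fold. For dynein and dynactin, 19 genes were called with median centring, 16 with spike-in scaling and 8 at 2-fold, with more higher than lower in each case. Kif5b ranged from −0.0094 (without Magic-F1 replicate 1) to 0.19 (without Magic-F1 replicate 2) when 1 array was left out. The cause of these differences was not tested.

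Leaving out 1 array at a time gave 60 to 63 probes called, 8 to 9 mitotic kinesins, 11 transport kinesins, 8 to 9 other kinesins, 9 inner centromere genes and 5 other centromere genes. The class medians ranged from −3.48 to −3.35 for mitotic kinesins, from 2.01 to 2.06 for transport kinesins and from −3.41 to −3.34 for inner centromere genes. Partners called ranged from 24 to 26 (kinetochore), 13 to 14 (mitotic kinesins), 14 to 16 (transport kinesins) and 20 to 21 (dynein and dynactin).

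Replicate numbers are shared by the groups, but same-numbered arrays deviated together only weakly (correlations −0.0029, 0.108 and 0.0689), so the numbers were not taken to pair the samples. With a replicate block, 62 probes were called (35 lower and 27 higher), and 18543 of all probes instead of 18590. Probes near background have only a bound, which limits Kif18a, Kif14, Kif6, Kif21a, Kif9 and Kif13b. These genes passed the filter only through the group where they were high, which fixed their direction.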
